A study of Mus musculus with 16 samples.

Results

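The genes described here are 10 components of protein folding and stress in the endoplasmic reticulum: Hspa5, Hsp90b1, Calr, Pdia3, Pdia4, Pdia6, Sdf2l1, Manf, Dnajb11 and Ddit3. They were chosen by symbol, with earlier results of these data known. Their counts and shares beside those of all genes are therefore descriptions. All 10 were found in each of 3 deposited tables, which list 18634, 17303 and 17730 genes. RNA was measured in 16 libraries of mouse cardiac fibroblasts sorted by flow cytometry. Every animal carried a Rosa26 reporter, in which Cre removes a stop cassette in front of EGFP, and every animal received tamoxifen, controls included. Labelled ages were 8 to 12 weeks.

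Loss of Tcf21, a transcription factor of cardiac fibroblasts, was studied in Tcf21-MerCreMer:Tcf21-fl animals against Tcf21-MerCreMer controls. Without injury, 3 loss and 3 control libraries were made 2 weeks after tamoxifen. With 1 week of angiotensin II and phenylephrine, agonists that provoke fibrosis, there were 2 loss and 3 control libraries. Gain was studied in Pdgfra-creERT:Col1a1-TCF21 animals under the same infusion, with 2 gain libraries and 3 Pdgfra-creERT controls. Recombination and sorting thus rested on cells that used the Tcf21 or the Pdgfra driver, and the 2 designs label fibroblasts through different drivers. Nothing in the labels ties each library to its own animal, and the p-values below reflect only how far these libraries differ among themselves.

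Proteins that enter the endoplasmic reticulum are folded there by chaperones and disulfide isomerases before they leave for the Golgi. When unfolded protein builds up, Ire1, Perk and Atf6 in its membrane start the unfolded protein response, and Atf6 and spliced Xbp1 raise transcription of the chaperone genes. The Perk arm acts through Atf4 and can induce Ddit3. Fibroblasts secrete much collagen and other matrix, which passes through this compartment.

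Hspa5 encodes BiP, the Hsp70 chaperone of the compartment, and lies at chr2:34771970-34777547 (all gene positions are from GENCODE vM21 on GRCm38). Hsp90b1, its Hsp90 chaperone, lies at chr10:86690209-86705509. Calr, at chr8:84841850-84846934, encodes calreticulin, a lectin chaperone that binds calcium. Pdia3, at chr2:121413775-121438687, encodes the disulfide isomerase that works with calreticulin. The other disulfide isomerases are Pdia4, at chr6:47796141-47813430, and Pdia6, at chr12:17266545-17284770. Among the cofactors, Dnajb11 (chr16:22857845-22879634) is a J-domain partner of BiP, and Sdf2l1 (chr16:17130138-17132383) forms a complex with Dnajb11. Manf, at chr9:106838312-106891979, is a secreted stress-inducible protein of the compartment. Ddit3, at chr10:127290774-127296288, encodes CHOP, a transcription factor induced in prolonged stress. All 10 are annotated as protein coding.

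Promoters were examined because the chaperone genes moved together across libraries, as the values further on show. RefSeq windows on GRCm38.p6, from 250 bases before to 50 after the start site, were matched by symbol for 9 of the 10 genes, and none was found for Manf. The ER stress element, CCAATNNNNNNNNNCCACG, is the textbook binding site of Atf6 with NF-Y. On either strand it occurred in 4 of the 9 windows and in 0.119% of all 32851 windows. Atf6 is already known to act on chaperone genes of this compartment, so these shares are a description and no test. The exact matches are shown in the direction of the motif, with its 10 fixed letters in capitals. Hspa5 held it from -65 to -47 relative to the start site, Hsp90b1 from -212 to -194 and, reversed, from -107 to -89, Calr reversed from -162 to -144, and Pdia6 from -98 to -80.
Hspa5: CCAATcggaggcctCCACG
Hsp90b1, distal: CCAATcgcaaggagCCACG
Hsp90b1, proximal: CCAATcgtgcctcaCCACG
Calr: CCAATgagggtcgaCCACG
Pdia6: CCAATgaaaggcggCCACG

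With 1 fixed letter allowed to differ, a search added after the exact matches were seen, 7 of the 9 windows held a match, against 1.5% of all windows. The further genes were Pdia3, from -29 to -11, Pdia4, reversed from -108 to -90, and Ddit3, reversed from -91 to -73. Their matches are printed with only the letters that fit the element in capitals.
Pdia3: CCAATcggcggctgCCACa
Pdia4: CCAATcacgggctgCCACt
Ddit3: CCAATcagaaagcggCACG

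Dnajb11 instead held the ER stress element II, ATTGGNCCACG, from 8 to 18 bases after its start site, printed here as ATTGGcCCACG. That motif was in 0.0365% of all windows and in no other of the 9. The core TGACGTGG, part of the element bound by Xbp1, was in none of the 9 and in 0.676% of all windows. The Atf4 type core TGATGCAA was likewise in none of them and in 0.895% of all. All the motif results are matches of letters and do not show binding, and no factor was measured here.

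The 250 bases upstream of the start sites of Hspa5, Hsp90b1 and Calr are printed below 5' to 3' on the strand of the gene, with the exact element in capitals (reversed where given above). They are the genes with the element and the highest levels. Their positions are chr2:34771840-34772089 (plus strand), chr10:86705445-86705694 (minus strand) and chr8:84846932-84847181 (minus strand). The start sites are those of RefSeq and differ from the GENCODE gene ends given above. Part of each stretch, with the element of Hspa5, therefore lies inside the GENCODE span of its gene.
Hspa5: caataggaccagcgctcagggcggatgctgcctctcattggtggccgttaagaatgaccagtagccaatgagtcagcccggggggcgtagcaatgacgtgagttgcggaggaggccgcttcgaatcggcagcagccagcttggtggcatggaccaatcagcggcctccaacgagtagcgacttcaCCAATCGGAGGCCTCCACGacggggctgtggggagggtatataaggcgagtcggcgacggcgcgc
Hsp90b1: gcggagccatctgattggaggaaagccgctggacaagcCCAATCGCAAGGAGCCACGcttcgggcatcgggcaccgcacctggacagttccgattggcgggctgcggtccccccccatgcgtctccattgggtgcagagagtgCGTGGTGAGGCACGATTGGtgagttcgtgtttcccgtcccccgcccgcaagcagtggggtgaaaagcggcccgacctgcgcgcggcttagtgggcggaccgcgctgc
Calr: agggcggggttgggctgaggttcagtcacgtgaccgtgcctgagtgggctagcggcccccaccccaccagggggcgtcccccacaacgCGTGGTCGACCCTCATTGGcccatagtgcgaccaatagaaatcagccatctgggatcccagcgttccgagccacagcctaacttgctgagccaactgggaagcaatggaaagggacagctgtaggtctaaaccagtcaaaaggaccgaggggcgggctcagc

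Values below are normalized counts, that is, reads assigned to a gene by estimation and divided by a factor for each library, with the authors' factors set table by table. Fold changes are ratios of group means, while log2 fold changes compare mean log2(value + 1). Tests were limma fits over all genes of a table with a mean of at least 10, two-sided, with Benjamini-Hochberg adjustment and a threshold of 0.05. All 10 genes passed that filter in every table. Tcf21 itself checked the labels: it was 5.56-fold lower in uninjured loss, 9.21-fold lower in infused loss and 2.44-fold higher in gain than in the controls (adjusted p = 4.2e-05, 0.0049 and 0.0045). All 8 fibroblast markers were listed above 10 in all libraries. Erythroid transcripts, 5 of 6 listed, summed to 23.4 to 31.2 in uninjured controls and to 1029, 201 and 12.7 in loss replicates 1 to 3. They summed to 19.3 to 44.9 in infused controls against 460 and 151 in the loss libraries, and to 15.1 to 63.9 in gain controls against 176 and 65.2 in gain. Each table had a control library with at least 1 of these erythroid markers at 0. Plasma and B cell markers, of which 2 or 3 of 8 were listed, overlapped between loss or gain and controls in every table. In uninjured loss and its controls 1 of the 2 listed was below 10 in all libraries but loss replicate 2. In infused loss and its controls 1 or 2 of the 3 listed were below 10 in every library. These sums thus rest on few genes. Summed markers parted from the controls without overlap for mural cells (7 genes, 8328 to 9475 in uninjured loss against 12857 to 14800), for T cells (2 of 5 listed, 45.4 to 57.7 in uninjured loss against 62.8 to 75.5), for myeloid cells (8 listed, 475 to 813 in infused loss against 866 to 1011), for endothelial cells (6 genes, 200.01 to 210 in infused loss against 165 to 180) and for cardiomyocytes (7 genes, 890 to 921 in gain against 678 to 799). The fibroblast sum was also below the controls without overlap in uninjured loss and in gain. The part of these sums in the chaperone values was not tested. Such bulk values cannot tell fewer cells of a type from less RNA per cell.

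The chaperones were abundant in control fibroblasts. Per kilobase of the longest principal transcript, the uninjured control mean was highest for Pdia3 at 12315, followed by Hspa5 at 11890 and Calr at 11331. The ranges of Pdia3 and Hspa5 over 3 libraries overlapped, as did those of Hspa5 and Calr. Hsp90b1 followed at 9899, then Pdia6 at 5494, Pdia4 at 2926 and Dnajb11 at 1632 per kilobase, none overlapping its neighbours. Ddit3 lay at 1205, Manf at 1051 and Sdf2l1 lowest at 560 per kilobase, again without overlap. In infused loss controls and in gain controls the order was the same except that Calr stood before Hspa5. Between the 3 sets of controls the means differed by 1.09-fold for Hspa5 to 1.51-fold for Pdia6, across tables that were normalized separately.

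**Figure D1:**
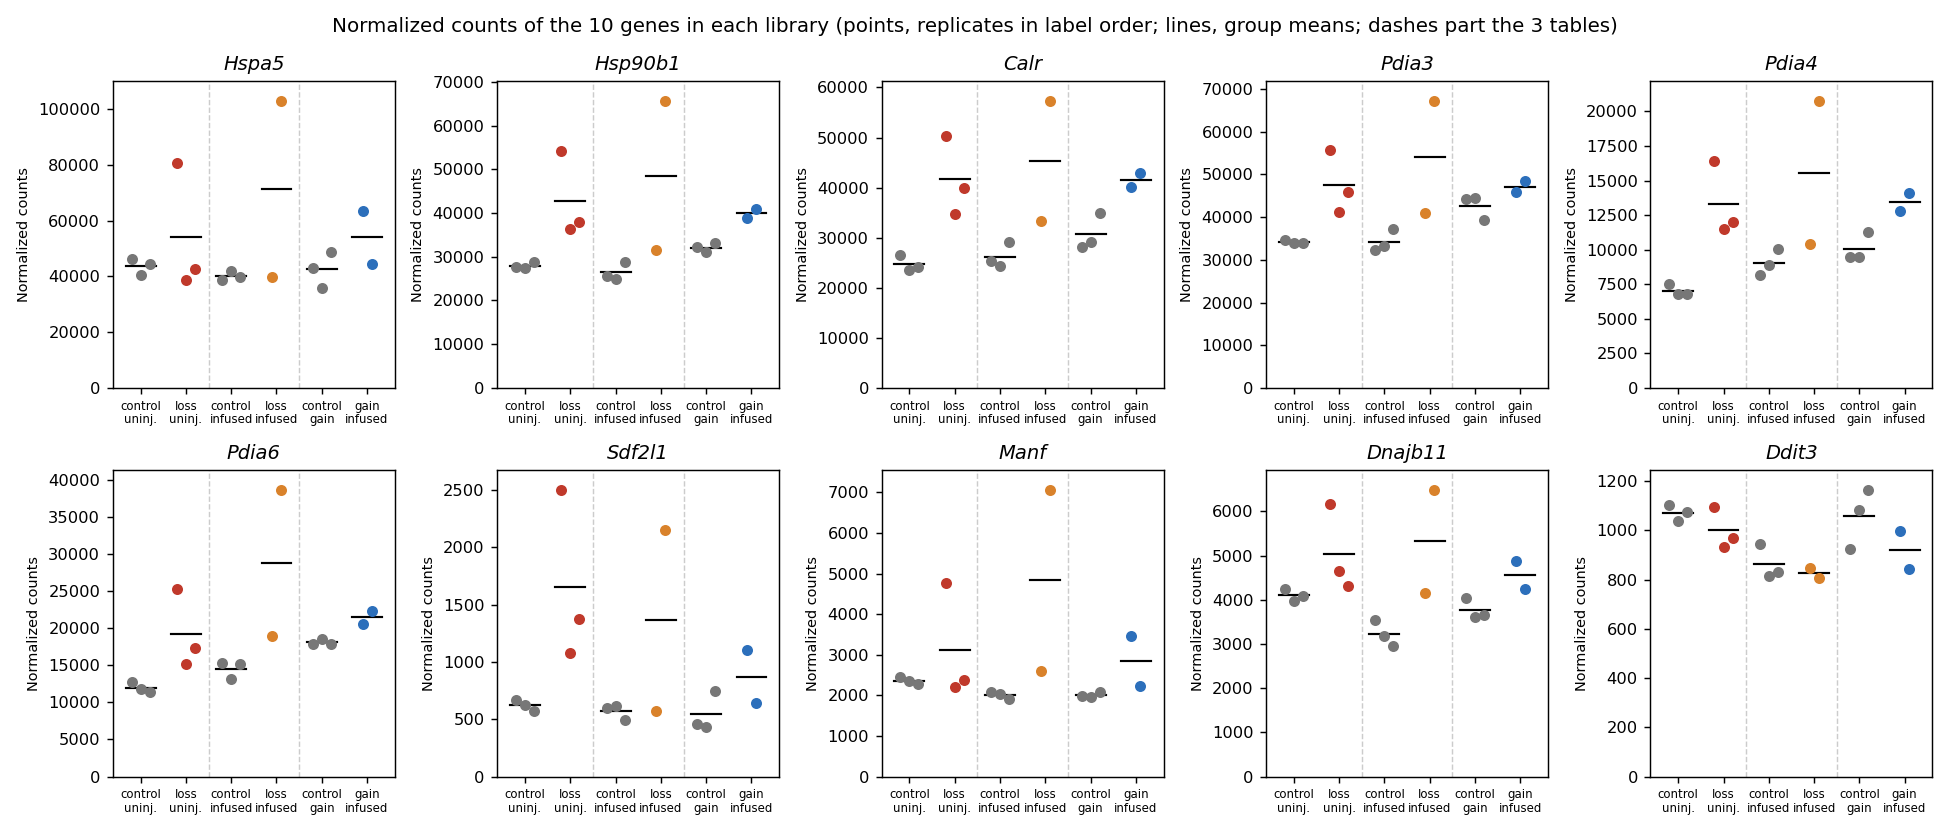
Normalized counts of each gene (vertical axes from 0, linear) in every library, with points for libraries and lines for group means; dashed lines part the 3 separately normalized tables. For the 9 chaperone genes 1 uninjured loss library and 1 infused loss library stand highest in their tables, and the Ddit3 points of loss and gain lie among or below the controls.

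Loss of Tcf21 in uninjured hearts was compared with control to ask what changes at baseline in resting fibroblasts. Pdia4, Calr and Sdf2l1 rose, by 1.89-fold, 1.68-fold and 2.66-fold, and no member fell. Those 3 of 10 compare with 253 of 15544 genes called higher, or 1.63%. The other chaperone genes were higher on average without passing, and Ddit3 lay at 0.932 of control.

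For Pdia4, which forms disulfide bonds, control libraries held 7502, 6785 and 6773 normalized counts and loss libraries 16403, 11486 and 11998. All 3 loss libraries stood above every control, with replicate 1 highest. Its log2 fold change was 0.90 (SE 0.130, limma adjusted p = 0.0109).

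For the lectin chaperone Calr, controls held 26583, 23579 and 24078 and loss libraries 50252, 34755 and 39991. Again every loss library lay above the controls and replicate 1 stood apart from the other two. The log2 fold change of Calr was 0.74 (SE 0.129, adjusted p = 0.0244 by limma).

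Sdf2l1, the scarcest of the 10, went from 667, 622 and 574 in controls to 2503, 1077 and 1377. It had the widest spread of the 3 called genes, yet its lowest loss library exceeded the highest control. Its log2 fold change was 1.32 (SE 0.263, limma adjusted p = 0.0356).

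Pdia3, Hsp90b1 and Pdia6 were separated from controls in the same way but just missed the threshold. Hsp90b1 held 27712, 27442 and 28739 in controls against 54198, 36269 and 38072 in loss, with a log2 fold change of 0.59 (adjusted p = 0.0554, limma). Pdia3 held 34645, 33845 and 33850 against 55709, 41217 and 45893, with 0.47 (adjusted p = 0.0532, limma). Pdia6 held 12682, 11816 and 11350 against 25227, 15105 and 17324, with 0.65 (adjusted p = 0.0642, limma). In each of the 3 the controls were tight and all loss libraries lay higher.

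Hspa5, the central chaperone, did not follow this division. Its controls held 46165, 40471 and 44344, and its loss libraries 80792, 38679 and 42780. Replicate 1 was far above the controls, replicate 2 below all of them and replicate 3 among them. The log2 fold change of 0.23 had a 95% interval from -0.31 to 0.77 (limma adjusted p = 0.620).

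Manf resembled Hspa5, with 2452, 2355 and 2280 in controls and 4773, 2210 and 2391 in loss. Only replicate 1 exceeded the controls (log2 fold change 0.31, limma adjusted p = 0.511). Dnajb11 held 4253, 3969 and 4080 against 6175, 4652 and 4305, so replicates 2 and 3 lay just above the highest control (log2 fold change 0.28, adjusted p = 0.246 by limma). These 3 genes, a chaperone and cofactors of folding, were thus high chiefly in 1 library.

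Ddit3 held 1104, 1037 and 1075 in controls and 1096, 934 and 968 in loss. Its groups overlapped, and replicate 1, the highest library for all 9 chaperone genes, was not higher for Ddit3 than the highest control. The log2 fold change was -0.10, with a 95% interval from -0.34 to 0.13 (limma adjusted p = 0.614).

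In 7 of the 9 chaperone genes every loss library was above every control, against 14.1% of all genes tested. The median log2 fold change of the 9 was 0.59, beside -0.012 over all genes. Without loss replicate 1 the median was 0.41, and Hspa5 and Manf turned to -0.10 and -0.039. In that fit 6 of 10 members passed instead of 3, while genes called higher also went up over the whole table, from 253 to 404 (2.6%). The 6 were Pdia4, Calr, Sdf2l1, Hsp90b1, Pdia3 and Pdia6, with limma adjusted p from 0.0031 to 0.0436. Without control replicate 1 only Pdia4 passed, and without control replicate 2 or 3 none did. Genes called higher over the whole table also went down in those fits, to 55, 49 and 50 (0.315% to 0.354%). Without loss replicate 2 or 3, 5 and 2 members passed, with 166 and 169 genes called higher. The median log2 fold change was within 0.41 to 0.70 over all 6 fits. The erythroid sum was highest in the library with the highest chaperone levels and above the controls in replicate 2 as well, and its part in the result was not tested.

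**Figure D2:**
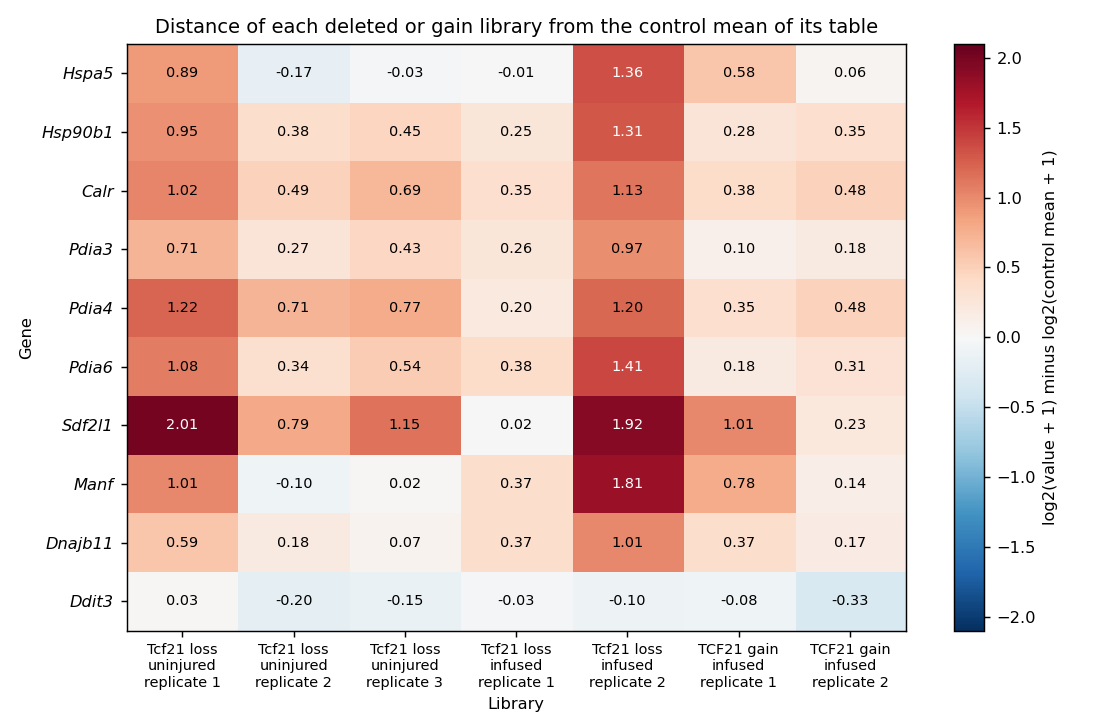
Each cell gives log2(value + 1) of a loss or gain library minus that of the control mean in its table, for 10 genes (vertical) and 7 libraries (horizontal), with red for higher and blue for lower. In uninjured loss, replicates 2 and 3 are above the control mean for Sdf2l1 (0.79 and 1.15) and Pdia4 (0.71 and 0.77) but not for Hspa5 (-0.17 and -0.03).

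The library values show 2 patterns within uninjured loss. In replicate 1 all 9 chaperone genes were above control, from 1.51-fold for Dnajb11 to 4.03-fold for Sdf2l1. In replicates 2 and 3 Sdf2l1 stood at 1.74-fold and 2.22-fold of the control mean, Pdia4 at 1.64-fold and 1.71-fold, and Calr at 1.40-fold and 1.62-fold. Hspa5 in the same libraries stood at 0.886 and 0.980 of control, and Manf at 0.935 and 1.01. In both of these libraries Pdia4 was thus above and Hspa5 below its control mean.

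Loss of Tcf21 during infusion addressed the effect of Tcf21 in fibroblasts under fibrotic stimulation. None of the 10 genes passed the test, and all 9 chaperone genes had positive log2 fold changes, from 0.62 for Pdia3 to 1.09 for Manf. Over all genes 48 of 14799 were called higher, or 0.324%. By unadjusted p below 0.05, limma gave 7 of the 9, against 7.27% of all genes higher at that level. The median of the 9 was 0.74, beside 0.00017 over all genes. The 2 loss libraries were far apart, and replicate 2 was the highest library for 9 of 9.

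Hspa5 held 38626, 41768 and 39691 in controls, and 39628 and 102852 in loss replicates 1 and 2. Replicate 1 lay within the controls and replicate 2 at 2.57-fold of their mean. The log2 fold change of 0.67 had a 95% interval from -0.20 to 1.55 (limma adjusted p = 0.413).

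Sdf2l1 shared that shape, with 599, 613 and 498 in controls and 577 and 2157 in loss. A single library carried its log2 fold change of 0.97 (limma adjusted p = 0.377). Manf held 2078, 2037 and 1917 against 2605 and 7065, so that both loss libraries were above the controls (log2 fold change 1.09, adjusted p = 0.234, limma).

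Hsp90b1 held 25651, 24983 and 28853 in controls against 31536 and 65621. Calr held 25340, 24254 and 29041 against 33312 and 57274. Pdia3 held 32317, 33265 and 37141 against 40894 and 67189. In these 3 genes replicate 1 was modestly and replicate 2 strongly above the controls, with no overlap; their adjusted p in limma was 0.271, 0.217 and 0.257.

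Pdia4 held 8204, 8885 and 10034 against 10409 and 20749 (log2 fold change 0.71, limma adjusted p = 0.282). Pdia6 held 15234, 13178 and 15175 against 18923 and 38621 (0.90, adjusted p = 0.210 by limma). Dnajb11, the closest to the threshold, held 3541, 3171 and 2961 against 4157 and 6488 (0.69, adjusted p = 0.176 by limma). For all 3 the control and loss ranges were apart, though Pdia4 replicate 1 exceeded the highest control only slightly.

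Ddit3 again did not follow: controls held 945, 815 and 832 and loss libraries 848 and 805. Both loss values lay within or below the control range, and the log2 fold change was -0.062 (limma adjusted p = 0.818). The library with the highest chaperone levels had the lowest Ddit3 value of its table.

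In 7 of the 9 chaperone genes, all but Hspa5 and Sdf2l1, both loss libraries were above every control, against 17.3% of genes tested. Leaving out loss replicate 2 brought the median log2 fold change from 0.74 to 0.26. Leaving out replicate 1 brought it to 1.31, with Sdf2l1 at 1.92 and Manf at 1.81. Each of these fits holds only 1 loss library. The erythroid sum was above the controls in both loss libraries and larger in replicate 1 than in replicate 2. Its part in the chaperone values was not tested.

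Gain of TCF21 during infusion addressed the effect of excess TCF21 in stimulated fibroblasts. Again no member passed, and all 9 chaperone genes were higher on average than in the controls, by 1.10-fold for Pdia3 to 1.60-fold for Sdf2l1. Over all genes 242 of 15369 were called higher, or 1.57%. At an unadjusted p below 0.05 in limma, 6 of the 9 counted, against 8.93% of all genes in the same direction. The median log2 fold change was 0.33, beside 0.0066 over all genes.

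Pdia4 came closest, with 9435, 9488 and 11278 in controls and 12792 and 14078 in gain. Both gain libraries were above the controls (log2 fold change 0.42, SE 0.110, limma adjusted p = 0.0872). Calr held 28217, 29194 and 34998 against 40164 and 42930 (log2 fold change 0.44, adjusted p = 0.116 by limma). Control replicate 3 was the highest control for both genes, and without it both passed (limma adjusted p = 0.0253 and 0.0290), with 2.24% of all genes called higher in that fit.

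Hsp90b1 held 32151, 31000 and 33106 in controls against 38901 and 40953 in gain, a narrow and separate pair of groups (log2 fold change 0.32, limma adjusted p = 0.144). Pdia6 held 17838, 18550 and 17815 against 20515 and 22337 (0.24, adjusted p = 0.195 by limma). Pdia3 held 44225, 44419 and 39384 against 45869 and 48437, the smallest difference of the 9 (0.15, adjusted p = 0.543 by limma). None of the 3 had overlapping groups.

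For Hspa5 the controls were spread, at 43147, 35874 and 48799, and gain libraries held 63489 and 44514. Gain replicate 2 lay among the controls (log2 fold change 0.33, limma adjusted p = 0.394). Sdf2l1 held 455, 435 and 745 against 1102 and 639, also overlapping through control replicate 3 (0.67, adjusted p = 0.267 by limma).

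Manf held 1997, 1964 and 2091 in controls against 3475 and 2230 (log2 fold change 0.46, limma adjusted p = 0.193). Without gain replicate 2, which leaves replicate 1 alone, the log2 fold change of Manf was 0.78. Dnajb11 held 4051, 3602 and 3657 against 4883 and 4240 (0.27, adjusted p = 0.185 by limma). Replicate 1 was the higher gain library for Hspa5, Sdf2l1, Manf and Dnajb11, and replicate 2 for the other 5 chaperone genes.

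Ddit3 held 926, 1082 and 1164 in controls against 999 and 842 in gain. Its groups overlapped, at a log2 fold change of -0.20 with a 95% interval from -0.52 to 0.12 (limma adjusted p = 0.474). In 7 of the 9 chaperone genes, all but Hspa5 and Sdf2l1, both gain libraries exceeded every control, against 19.1% of genes tested.

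**Figure D3:**
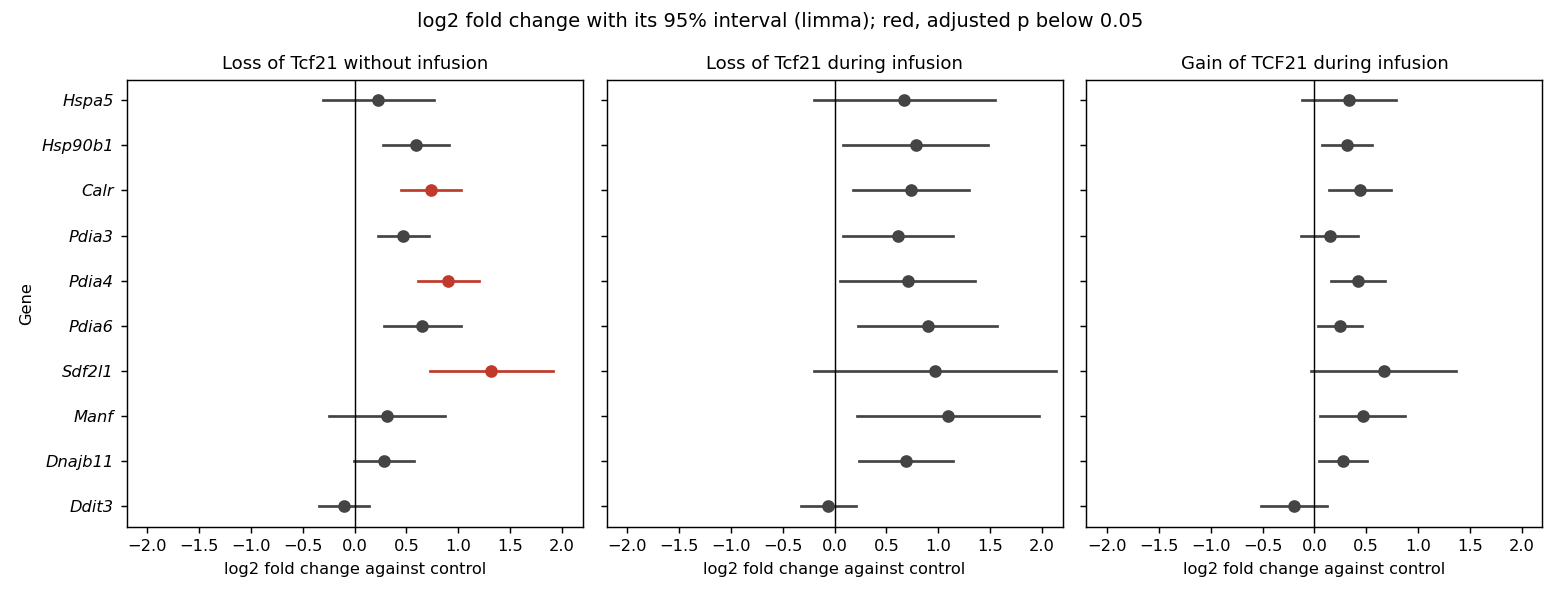
log2 fold change of each gene against its controls (horizontal axis) with 95% intervals from limma, in 3 comparisons; red marks an adjusted p below 0.05. All 9 chaperone genes lie to the right of 0 in each panel, with 3 red in the first and 0 in the others, and the intervals of those 9 are widest in infused loss.

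The difference between comparisons was tested directly. Between loss with and without infusion, no member differed by the interaction test, with 21 of 14130 genes called. The largest member difference was 0.78 for Manf (95% interval -0.32 to 1.88, limma adjusted p = 0.573). At an unadjusted p below 0.05, 1642 genes and none of the 9 chaperone genes counted. Between gain and infused loss, again no member differed, with 420 of 14319 genes called and 2330 at an unadjusted p below 0.05, none of the 9 among them. All 9 were lower in that contrast, that is, less raised in gain, with Pdia6 at -0.65 (95% interval -1.39 to 0.080, limma adjusted p = 0.364). Without infused loss replicate 2 the median over the 9 went from -0.42 to 0.087, with Pdia3, Pdia6 and Dnajb11 still negative and the other 6 positive. The median of the first contrast went from 0.19 to -0.27 without that library. Leaving out infused loss replicate 1 instead makes replicate 2 the only infused loss library. In gain against infused loss the median over the 9 was then -0.996, with Hsp90b1 at -0.996, Pdia6 at -1.17 and Manf at -1.35. These contrasts share their libraries with the comparisons above.

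The spread between libraries was larger in the loss groups by its median over the 9 chaperone genes. The median coefficient of variation was 5.65% in uninjured controls (1.35% to 7.48%), 8.06% in infused loss controls (3.99% to 11.03%) and 6.68% in gain controls (2.31% to 31.9%). In uninjured loss it ran from 15.5% to 45.8% with a median of 23.0%, and in infused loss from 31.0% to 81.8% with a median of 48.4%. Gain libraries had a median of 6.76% and a range of 3.63% to 37.6%. The highest value among gain controls, that of Sdf2l1, thus lay within the range of both loss groups. No test of this spread was made, with 2 or 3 libraries a group.

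Across the 16 libraries, each expressed relative to the mean of its table, the 9 chaperone genes moved together. Pearson's r over the 36 pairs of genes ran from 0.77 to 0.99, with a median of 0.89. Without uninjured loss replicate 1 and infused loss replicate 2 the range was 0.18 to 0.97 and the median 0.65. Ddit3 correlated with the 9 at -0.34 to -0.0023, with a median of -0.22. Without the same 2 libraries its range was -0.59 to 0.037 and its median -0.41. These libraries share tables and normalization, and the values are descriptions.

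By the same measure, Pearson's r with the mean of the 9 over 16 libraries among 11210 genes, the 10 most similar genes outside the members were Slc35b1, Canx, Lman2, Creld2, Fkbp2, P4ha1, Rpn1, Spcs2, Snrpa and Cap1. Slc35b1, a nucleotide transporter of the compartment membrane, had the highest r at 0.97 (0.90 without the 2 high libraries). Canx, the membrane-bound relative of calreticulin, followed at 0.96 (0.84). Creld2, a stress-inducible protein of the compartment, had 0.95 (0.86), and Fkbp2, a prolyl isomerase, 0.94 (0.87). Over all genes the median r was -0.0022, and 15 genes outside the members exceeded 0.9.

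Other genes of the secretory pathway were taken from lists that were also chosen with earlier results of these data known. Of 16 other chaperones and co-chaperones of the compartment, 4 rose in uninjured loss and none fell: Hyou1 at 1.89-fold, Fkbp2 at 1.65-fold, Cnpy3 at 1.56-fold and Cnpy2 at 1.41-fold (limma adjusted p = 0.0334, 0.0244, 0.0210 and 0.0250). Hyou1, which exchanges nucleotide on BiP, is named beyond the 3 smallest p-values, after its value was seen. The list median was 0.22, with 14 of 16 positive; none was called in infused loss (median 0.32, or 0.12 without loss replicate 2) or gain (median 0.052). Leaving out any 1 control library left 0 of the 16 called in uninjured loss, at medians of 0.22 to 0.23. Over all genes, 0.315% to 0.354% were called higher in those fits, against 1.63% with every library.

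Of 15 other oxidoreductases, only Creld2 rose in uninjured loss (1.94-fold, limma adjusted p = 0.0304), and the list median was 0.13. Leaving out any 1 uninjured control left 0 of the 15 called, in fits with 0.315% to 0.354% of all genes called higher. Translocon and N-glycosylation genes, which insert and glycosylate new chains, had 3 of 26 called higher: Ddost at 1.40-fold, Rpn1 at 1.32-fold and Ganab at 1.26-fold (limma adjusted p = 0.0161, 0.0371 and 0.0398). Their median was 0.25 with 24 of 26 positive in uninjured loss, 0.28 with 25 of 25 positive in infused loss (0.11 with 20 positive without loss replicate 2) and 0.16 with 22 of 26 positive in gain. In the same fits without 1 uninjured control, 0 of 26 were called, at medians of 0.25 to 0.28.

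Genes of degradation, sensing and transport had few or no calls. None of 17 genes of degradation from the compartment was called in any comparison, with medians of 0.049, 0.16 and 0.083 in uninjured loss, infused loss and gain. Herpud1, which helps degradation and is a known target of the unfolded protein response, stood at 0.842 of control in uninjured loss (limma adjusted p = 0.118). Derl3, of the same list, stood at 5.11-fold in infused loss, from a control mean of 13.5 normalized counts (limma adjusted p = 0.22). None of the 10 sensors and transducers was called, with medians of -0.046, -0.049 and -0.0086. Transport to the Golgi had none of 26 called in uninjured loss or gain and none of 25 in infused loss, with medians of 0.026, 0.16 and 0.062.

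The Atf4 branch, to which Ddit3 belongs by its known control, was mixed. In uninjured loss 2 of 22 tested rose, Trib3 at 1.68-fold and Nupr1 at 1.33-fold (limma adjusted p = 0.0209 and 0.0371), and the list median was 0.068. In gain 2 of 23 rose, Ddit4 at 1.76-fold and Mthfd2 at 1.60-fold (limma adjusted p = 0.0419 and 0.0497), while Ppp1r15a fell by 0.97 and Nupr1 fell by 0.69 on the log2 scale (limma adjusted p = 0.0359 and 0.0387). None of 21 was called in infused loss. Of all genes, 1.63% were called higher in uninjured loss, and in gain 1.57% were called higher and 2.57% lower. Leaving out 1 library gave 0 to 3 that rose in uninjured loss, and in gain 0 or 1 that rose and 0 to 2 that fell. Mthfd2 is named beyond the rule, after its value was seen.

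Chaperones outside the compartment had few calls, each of them lower than control. Over all genes, 1.96% were called lower in uninjured loss, 0.588% in infused loss and 2.57% in gain. With 1 library left out, the share was 0.244% to 3.14% in uninjured loss. With 1 control left out in gain, it was 0.674% to 3.13%. Of 17 cytosolic and mitochondrial chaperones, none rose in uninjured loss and 3 fell: Hspa8, the constitutive cytosolic Hsp70, was 1.57-fold lower, Hsph1 1.93-fold lower and Dnaja1 1.37-fold lower (limma adjusted p = 0.0095, 0.0287 and 0.0395). The list median was -0.18, against 0.59 for the 9 chaperone genes described here, and 0 to 4 of the 17 fell when 1 library was left out. In infused loss 14 of the 17 were positive, at a median of 0.15, and Dnajb1 fell (1.60-fold lower, limma adjusted p = 0.0334). In loss replicate 2, the library with the highest chaperone levels of the compartment, the median of the 17 was 0.44 with 15 above the control mean, and in replicate 1 it was -0.054 with 5 above. In gain Dnajb4 fell (1.43-fold lower, limma adjusted p = 0.0426), at a median of -0.00044. Neither Dnajb1 nor Dnajb4 passed in any of the 5 fits that left out 1 library of their comparison, and 2 of the 17 rose in infused loss without control replicate 3. Immediate early genes, which respond within minutes to handling and stimulation, had a median of -0.080 in uninjured loss, -0.55 in infused loss and -0.78 in gain. Of these, 1 of 20 fell in uninjured loss, none of 21 was called in infused loss, and in gain 1 rose and 6 fell (0 to 13 with 1 library left out). The part of these genes in the chaperone values was not tested.

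The secreted matrix cargo of these cells was also listed. Of 16 matrix genes, 1 was called in uninjured loss: Eln, the elastin gene, was 2.50-fold lower (limma adjusted p = 0.0029), and the list median was -0.010. None of 15 was called in infused loss (median 0.13) and none of 16 in gain (median -0.10). In uninjured loss 1.96% of all genes were called lower.

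**Figure D4:**
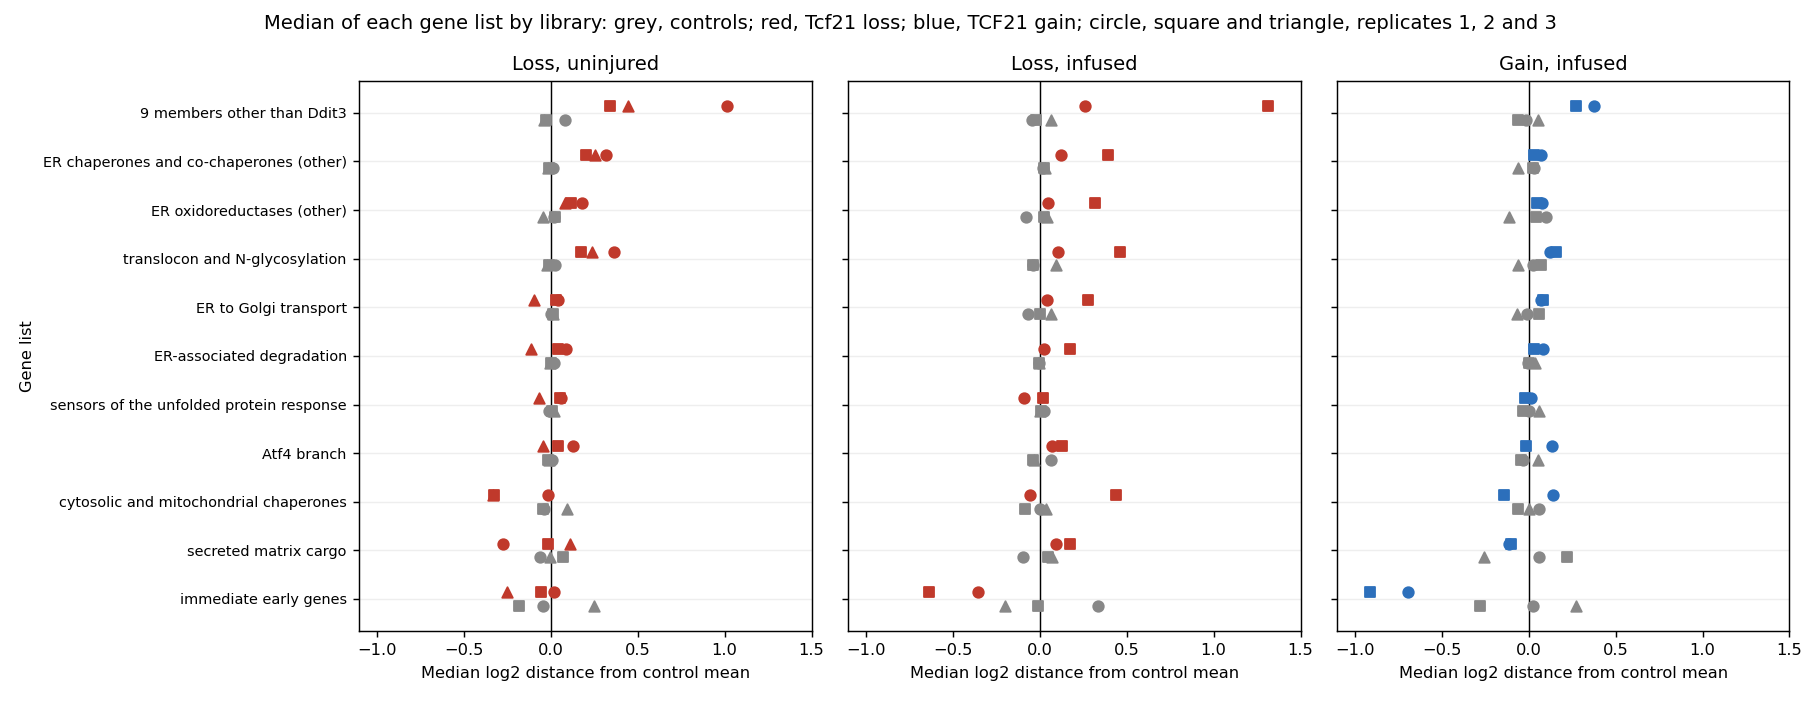
Median log2 distance from the control mean (horizontal axis) of each gene list in every library of 3 comparisons, grey for controls, red for loss and blue for gain, with marker shapes for replicates. The 9 chaperone genes lie farthest right in uninjured loss replicate 1 (1.02) and infused loss replicate 2 (1.31), and the lists for sensors and for degradation stay near 0.

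Other genes with the promoter element lay near the median of all genes. Of 33 genes outside the members with an exact ER stress element, 17 were tested in each comparison, with medians of 0.0034 in uninjured loss, -0.018 in infused loss and 0.061 in gain. Creld2 was the 1 called in uninjured loss and Hnrnpa3, an RNA-binding protein, the 1 called in gain (1.31-fold, limma adjusted p = 0.0443). With 1 library left out, Creld2 passed in 3 of 6 fits and Hnrnpa3 in 1 of 5. Of the 4 members with an exact element, Calr rose in uninjured loss, at a log2 fold change of 0.74. Pdia6, Hsp90b1 and Hspa5 held it at 0.65, 0.59 and 0.23 there without passing. Among the members without an exact match, Pdia4, with 1 letter off, and Sdf2l1 rose, and Pdia3, Dnajb11 and Ddit3 did not pass. The part of the element in these values was not tested.

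Some members overlap a neighbour in annotated gene span, introns included, which does not by itself show shared reads. Neither strand use nor overlap handling is given in the sources used here. Whether counted reads include a neighbour's was not tested. Manf overlaps Dcaf1 on the opposite strand and Rbm15b on its own, and Dnajb11 overlaps the antisense gene Gm30505. Hsp90b1 overlaps the pseudogene 1810014B01Rik. Ddit3 has a second annotated model, at chr10:127290829-127293753, and overlaps the end of Mars.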

How the data were processed

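Sorted cardiac fibroblast RNA was amplified by SMART-seq v4, made for low input, per the labels. In the submitters' processing notes kallisto, DESeq2 and GRCm38 are named; the annotation and the tool versions are not given there. The authors deposited signal values: estimated counts, normalized within each table, with library sums of 27814940 to 40970391. Whole reads could not be recovered, so depth is unknown and no count model was fitted.

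Groups came from sample labels. limma 3.58.1 (R 4.3.3) tested log2(value + 1) of genes whose table mean reached 10, through lmFit and trended eBayes, two-sided, with Benjamini-Hochberg adjustment at 0.05 and the 2 compared groups in a fit. Differences between effects were interaction contrasts over 4 groups. The fits were tested on simulated data. Plots used matplotlib 3.10.9. Alternatives changed pseudocount, filter, variance trend, library weights, scaling, replicate block and libraries; lists without each library and the looser promoter search were added after seeing the data. Named genes were all 10 members, up to 3 genes of smallest p per list and comparison, and the 10 most similar. The members and lists were chosen with earlier results of these data known. Protein sequences were not analysed here.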

Additional observations from a re-analysis of the deposited data

How the results depend on the processing

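Pseudocounts of 0.5 and 5, no filter, equal sums and median-of-ratios scaling kept every member on its side of the threshold with its direction in the 3 comparisons with controls. For the 3 members called in uninjured loss, the number became 5 with a mean of at least 50, 0 with an untrended variance and 6 with library weights. With untrended variance and with weights, all-gene counts were 94 and 949 there. Infused loss had 72 and 308 genes, gain 25 and 1013 genes and 2 members with weights, the loss interaction 39 with weights, and gain against loss 263 and 780. The gain median was 0.43 with equal sums. Leaving out 1 library gave 0 to 6 members and 88 to 891 genes in uninjured loss, 0 to 2 and 32 to 175 in infused loss, 0 to 2 and 124 to 821 in gain (median 0.27 to 0.43), 12 to 57 genes in the loss interaction (median -0.27 to 0.72), and 0 to 3 members and 155 to 436 genes in gain against loss (median -0.996 to 0.087). Signs changed for Hspa5 (-0.10 to 0.43) and Manf (-0.039 to 0.52) in uninjured loss, and for Hspa5 (-0.014 to 1.36) and Ddit3 (-0.10 to 0.0047) in infused loss. They also did in the loss interaction for Hspa5 (-0.24 to 1.13), Hsp90b1 (-0.34 to 0.72), Calr (-0.39 to 0.40), Pdia3 (-0.21 to 0.51), Pdia4 (-0.70 to 0.30), Pdia6 (-0.27 to 0.76), Sdf2l1 (-1.30 to 0.60) and Ddit3 (-0.0046 to 0.11), and in gain against loss for Hspa5 (-1.03 to 0.34), Hsp90b1 (-0.996 to 0.061), Calr (-0.69 to 0.087), Pdia4 (-0.78 to 0.21), Sdf2l1 (-1.26 to 0.64) and Manf (-1.35 to 0.090). The cause was not tested. Deviations from group means correlated at r of -0.054 to 0.18 between same-numbered libraries and -0.23 to 0.23 between others. Deviations of 2 libraries in a group mirror each other, so these values cannot decide whether replicate numbers pair libraries. The labels do not say. With the replicate block, 227 genes were called in uninjured loss, and 1462 genes and 7 members in infused loss. In gain the block called 1842 genes and 5 members (median 0.43), and in the contrasts 79 and 901 genes. Sdf2l1 changed sign in gain against loss (0.036). No infused loss or gain library is numbered 3, so the block takes control replicate 3 of those comparisons out of the estimates.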
